A study of Mus musculus with 10 samples.

Results

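Histone H3 dimethylated at lysine 9 (H3K9me2) was mapped by chromatin immunoprecipitation sequencing in skeletal muscle of fed mice and of mice starved for 24 h. The members analysed here are all peaks of the library labelled H3K9me2 fed and of the library labelled H3K9me2 24h starved, 178026 regions of the 365066 regions in the 8 peak lists of the series. The fed list held 171402 regions and the starved list 6624. The study used starvation to raise endogenous glucocorticoids and asked how chromatin marks, the glucocorticoid receptor (GR) and the demethylase LSD1 change in muscle.

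Both groups were C57BL/6J mice, labelled as 10 weeks old, with no transgene or deletion in the labels, and the labels set them apart by food withdrawal and by library code. The text of the study speaks of male mice and gives several ages. The tissue was whole skeletal muscle, so that nuclei of fibres and of the other cells of muscle were read together. Each condition had 1 library, and no number of pooled animals was given in the sources used here. No spread between replicates could be computed, no test was made, and every difference below describes these libraries. The fed H3K9me2 library and both input libraries carried the code P2727 in the labels, whereas the starved H3K9me2 library carried P2731, so that food withdrawal and library code cannot be told apart for this mark. The depth of the libraries is unknown. All 95% intervals cover counting error only.

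H3K9me2 is laid down mainly by the methyltransferases EHMT1 and EHMT2 and is removed by demethylases of the KDM3 and KDM4 families and, in some complexes, by LSD1. It is known as a mark of silent chromatin, where it covers long stretches of gene-poor and repeat-rich sequence and marks silent genes, while active promoters usually carry little of it. In muscle the mark has been linked to the silencing of genes during differentiation.

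The strongest sites called in both conditions were short tandem repeats, and they are shown first. The 3 lines are the sites with the highest fold enrichment over input, ranked by the smaller fold of the pair. Capitals mark the bases covered by a peak in both lists. All are given on the plus strand of GRCm38.
Site on chromosome 1, chr1:12644764-12644860: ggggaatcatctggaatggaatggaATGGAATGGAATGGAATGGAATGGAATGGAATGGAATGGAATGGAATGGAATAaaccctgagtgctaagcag
Site on chromosome 17, chr17:56200005-56200095: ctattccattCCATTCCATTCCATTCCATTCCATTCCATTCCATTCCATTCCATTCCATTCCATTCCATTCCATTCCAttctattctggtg
Site on chromosome 14, chr14:104336848-104337032: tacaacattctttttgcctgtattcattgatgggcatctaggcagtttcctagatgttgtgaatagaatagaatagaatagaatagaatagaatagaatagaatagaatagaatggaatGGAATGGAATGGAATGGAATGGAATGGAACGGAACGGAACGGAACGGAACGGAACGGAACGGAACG

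The site on chromosome 1 had a fold enrichment of 43.4 in the fed list and 6.335 in the starved list. It lay in intergenic sequence, 22.75 kb from the start of Gm17644. The site on chromosome 17 had folds of 46.68 and 5.83 and lay in an intron, 16.1 kb from the start of Mydgf. The site on chromosome 14 had folds of 22.55 and 5.71 and lay in an intron, 122 kb from the start of D130079A08Rik. All 3 held tandem copies of the 5-base unit GGAAT or of its reverse strand. Their longest unbroken runs with a period of 5 bases were 66, 79 and 54 bases long. On chromosome 14 that run was of the unit GAATA and lay outside the capitals, which held copies of GGAAT and of GGAAC. Each was also called in 5 of the other 6 lists of the series, the exception being GR starved.

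The sites that ranked 4 and 5 held no simple repeat of more than 12 bases. The one on chromosome 15, chr15:47233278-47233470, had folds of 7.06 and 5.46, and the one on chromosome 1, chr1:32490413-32490564, had folds of 5.12 and 4.535. Each was called in no list but the 2 of H3K9me2, and all bases of both were soft-masked as repeats.

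Telomere-type repeats, made of the 6-base unit of which telomeres consist, were nearly as often covered in the short starved list as in the long fed list. Runs of at least 24 bases of the unit CCCTAA, in any register and on either strand, occurred at 311 loci on chromosomes 1 to 19, X and Y. A fed peak overlapped 120 of them (38.6%) and a starved peak 118 (37.9%), and 96 of these loci were the same. At a q-value of 0.01 or less the counts were 115 loci in each list. Over the 103 tandem units of 1 to 6 bases with at least 100 such loci, 735420 loci in all, the shares were 1.15% in fed and 0.0473% in starved muscle. The telomere-type unit had the highest share of the 103 units in both lists. The unit with the next highest share in both was ACAGC, with 24 fed and 19 starved of 274 loci, of which 16 were the same.

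**Figure D1:**
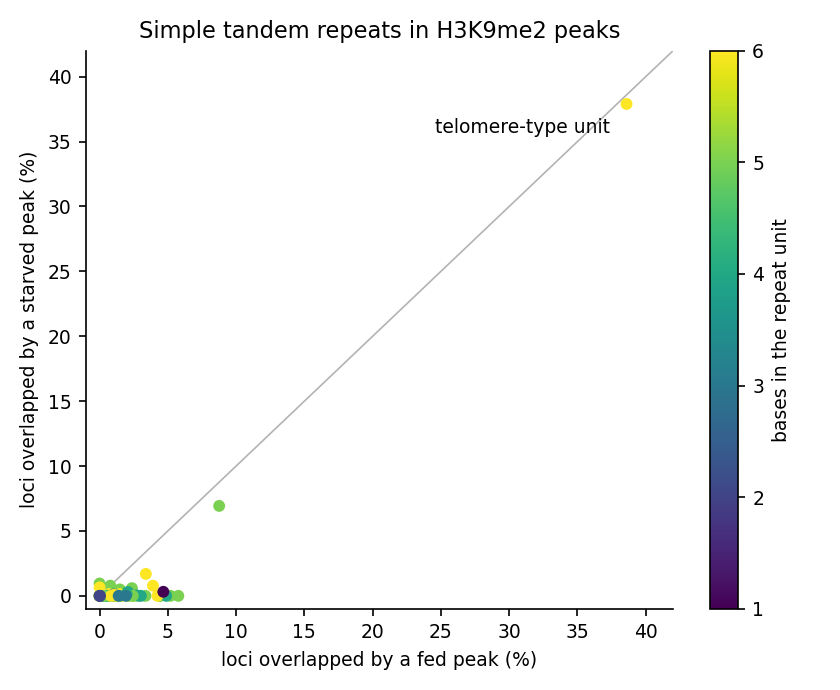
Share of the genomic loci of each of 103 simple tandem units that was overlapped by an H3K9me2 peak in fed (x axis, %) and in starved muscle (y axis, %), with 1 point per unit, coloured by its number of bases, and a line of equal shares. The telomere-type unit stands apart near the line, at 38.6% in fed and 37.9% in starved, while most units lie near 0 on the y axis.

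Longer telomere-type runs were covered more often. Among runs of 24 to 34 bases, 2 fed and 1 starved of 83 loci were covered, and among runs of 50 to 99 bases 70 of 133 in each list (52.6%). Among runs of 100 bases or more, 41 of 50 loci were covered in fed and 45 in starved muscle. The 96 loci covered in both conditions lay on all 21 chromosomes, and 30 of them lay within 5 Mb of a chromosome end. Those of the 311 loci that neither list covered also lay on all 21 chromosomes, and 33 of them were that near an end. The same held for 3 of the 24 loci covered in fed muscle alone and 2 of the 22 covered in starved muscle alone. A location near chromosome ends was thus not particular to covered loci. Peaks that held at least 4 unbroken copies of the unit numbered 118 in the fed and 116 in the starved list, or 0.069% (95% interval 0.0571 to 0.0826) and 1.78% (1.47 to 2.13) of the 2 lists. Their median fold was 2.67 in fed and 2.75 in starved muscle. Of equally long sequence 5 kb to the right of each peak, 4 pieces in fed and 0 in starved muscle held such a run. The other lists covered fewer of the 311 loci, with 21.2% in H3K9me1 starved, 17.0% in LSD1 starved, 15.8% in GR starved, 12.9% in GR fed, 7.07% in LSD1 fed and 5.79% in H3K9me1 fed.

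The GGAAT repeats were covered largely in the fed list. At least 4 unbroken copies occurred at 40 loci, of which 32 were covered in fed and 4 in starved muscle. They made up 26 of the 46 fed peaks with a fold of at least 10. The starved list reached no such fold, and 3 of its 50 strongest peaks held the unit. The 3 strongest fed peaks without a starved counterpart also consisted largely of a 5-base unit, with folds of 42.02, 39.2 and 39.1. H3K9me1 fed and LSD1 fed each covered 25 of the 40 loci, H3K9me1 starved 10, LSD1 starved 15, GR fed 9 and GR starved 1. The folds at these loci reached 46.68 in H3K9me2 fed, 25.5 in H3K9me1 fed, 24.6 in LSD1 fed and 5.77 in GR fed, so that high folds there were found with other antibodies too.

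The strongest starved peaks without a fed counterpart were short. The strongest, with a fold of 7.09, lay in intergenic sequence on chromosome 11, chr11:56593609-56593657 on the plus strand, and was called in H3K9me1 starved and LSD1 starved as well. The next, with a fold of 6.83, lay 5.40 kb from the start of Vmn2r72, a pheromone receptor gene, at chr7:85760348-85760414, and no other list called it. They are printed as the strongest peaks called in starved muscle alone, and each is soft-masked in full. Over all starved peaks with a fold of at least 5, soft-masked repeats made up 50.1% of the bases.
Strongest starved peak, chromosome 11: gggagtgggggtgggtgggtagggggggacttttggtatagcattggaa
Next strongest, chromosome 7: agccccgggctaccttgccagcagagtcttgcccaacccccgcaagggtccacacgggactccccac

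Peaks of both lists were narrow for a mark that is known for long domains. The median length was 92 bp in fed and 102 bp in starved muscle, and the minimum length, 50 bp in fed and 49 bp in starved muscle, was that of 37.8% and 29.2% of them. Peaks of 2 kb or more numbered 13 in fed and 17 in starved muscle. Unplaced contigs included, the fed peaks covered 20.95 Mb and the starved peaks 0.881 Mb. Of the chromosomes alone they covered 0.787% and 0.0310%. The median distance between neighbouring peaks was 8.78 kb in fed and 194 kb in starved muscle. Most folds were low, with 87.75% of the fed and 67.35% of the starved peaks between 3 and 4.

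The excess of fed over starved peaks was smallest at the most stringent q-value. The starved list held 3.865% as many peaks as the fed list, 2.95% at a q-value of 0.01 and 33.8% at 1e-05, where 208 starved and 615 fed peaks were left. A fed peak overlapped 77.4% of those 208 starved peaks, against 8.001% (7.36 to 8.68) of the whole starved list. With a fold of at least 5 in both lists the starved list held 10.7% as many peaks, and 4.88% of the starved and 0.5215% of the fed peaks overlapped. With the fed list cut by fold to the number of starved peaks, a starved peak overlapped 0.1963% of it, against 0.2935% of the whole fed list. The median length fell with the fold up to a fold of 5. In fed muscle it was 210 bp below a fold of 2, 50 bp between 4 and 5, 53 bp between 5 and 10 and 73 bp from 10. In starved muscle it was 221 bp below a fold of 2, and 49 bp both between 4 and 5 and between 5 and 10.

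Fed peak density varied 1.27-fold between the autosomes and was low on the sex chromosomes. Their density ranged from 65.1 peaks per Mb on chromosome 14 to 82.6 on chromosome 11, with a mean of 70.8. Starved density ranged from 1.59 peaks per Mb on chromosome 7 to 3.485 on chromosome 3, with a mean of 2.66. Chromosomes 11 and 19 ranked highest of the 19 autosomes in fed muscle and 17 and 18 of 19 in starved muscle. The starved count was 2.38% (2.08 to 2.71) of the fed count on chromosome 11, 2.32% (1.89 to 2.82) on chromosome 19 and 4.87% (4.47 to 5.31) on chromosome 3.

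**Figure D2:**
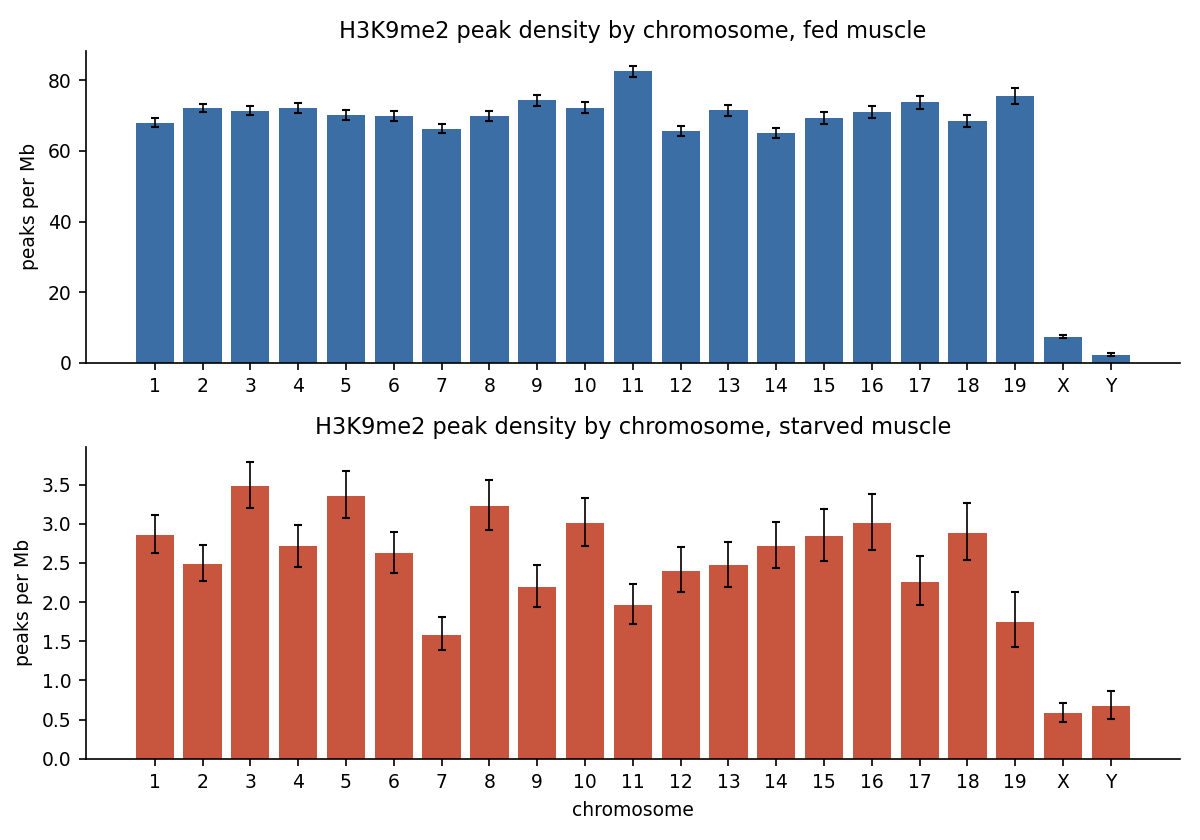
Density of H3K9me2 peaks in fed (upper panel) and starved muscle (lower panel), in peaks per Mb of sequenced bases, by chromosome; bars start at 0 and error bars are 95% Poisson intervals. Chromosome 11 is highest in fed muscle at 82.6 and chromosome 3 in starved muscle at 3.485, and X and Y are low in both.

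The X chromosome held 7.33 fed peaks per Mb, 0.103 (0.0977 to 0.1095) of the autosomal density, and 0.581 starved peaks per Mb, 0.218 (0.177 to 0.267) of it. Male cells carry a single X beside paired autosomes. The ratio was also low in the other 6 lists, between 0.0737 in GR starved and 0.129 in H3K9me1 starved, so the scarcity on X was not particular to H3K9me2. The order of the conditions was not the same for each choice of peaks. With peaks under 50% soft-masked the ratio was 0.0574 in starved and 0.0692 in fed muscle, and with a fold of at least 5 it was 0 and 0.214. Only 82 starved peaks had such a fold, so the ratio of 0 says little. No counting interval was computed anew for these choices, and a reversal is not shown. Of the 95 starved peaks on X, 40 lay in its last 2 Mb, where 59 of the 1198 fed peaks lay. Without that end the ratio was 0.127 (0.0959 to 0.166) in starved and 0.0990 (0.0934 to 0.105) in fed muscle. The end of X holds the region that pairs with Y, with Mid1 and Erdr1. Of the 59 starved peaks on Y, 53 lay in 1 block of 101 kb around Erdr1, where 70 of the 199 fed peaks lay.

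Along the autosomes the lists ran in opposite directions. In 2376 windows of 1 Mb, fed density rose from 51.4 peaks per Mb in the 476 windows poorest in GC to 88.5 in the richest 475, when the windows were cut into 5 equal classes. Starved density fell over the same classes from 4.19 (4.01 to 4.38) to 1.03 (0.944 to 1.13) peaks per Mb. The starved count was thereby 8.15% of the fed count in the GC-poorest class and 1.17% in the GC-richest. Sorted by gene cover, fed density went from 50.9 in the gene-poorest class to 81.6 in the gene-richest, and starved density from 3.72 to 1.81. Sorted by masked repeats, fed density went from 77.8 to 50.9 and starved density from 1.55 to 3.65. The Spearman correlation of fed and starved counts over the windows was -0.41, as a description over neighbouring windows that share GC content and mappability.

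**Figure D3:**
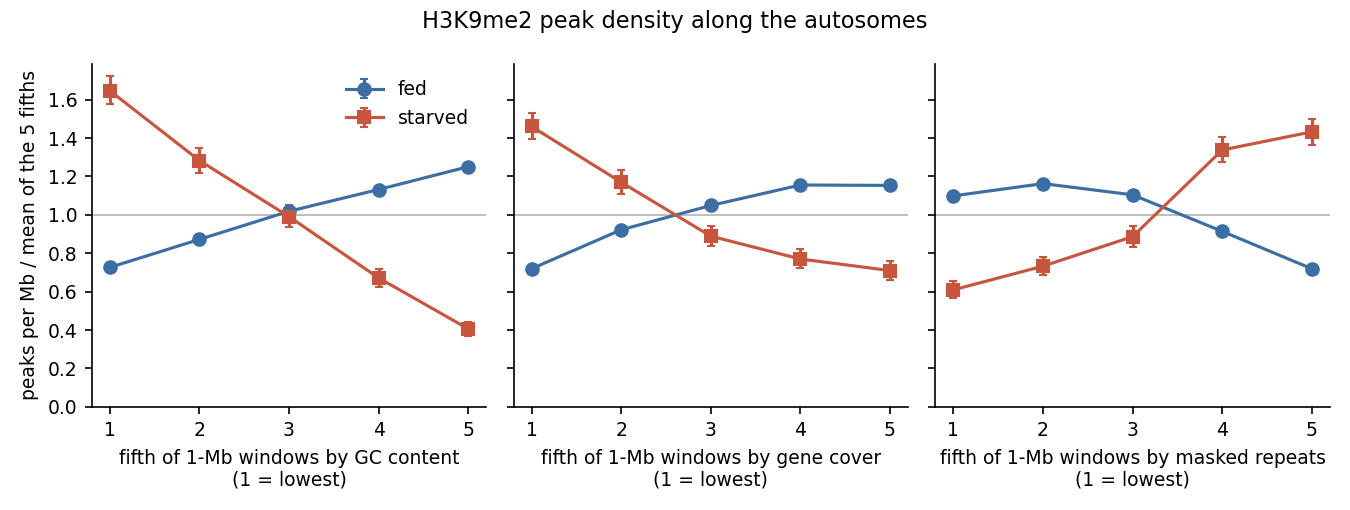
H3K9me2 peak density in 5 classes of 1-Mb autosomal windows sorted by GC content, gene cover and masked repeats, each divided by the mean of its 5 classes; error bars are 95% Poisson intervals. The fed and starved lines cross in each panel, the starved one falling from 4.19 to 1.03 peaks per Mb over the GC classes while the fed one goes from 51.4 to 88.5.

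Over the windows, fed counts had a Spearman correlation of 0.73 with LSD1 fed and 0.72 with GR fed, whereas starved counts had -0.53 with LSD1 fed and -0.50 with GR fed. With the starved lists, starved counts had -0.30 for LSD1, -0.51 for GR and -0.0044 for H3K9me1, and fed counts had 0.56, 0.74 and 0.28. From the GC-poorest to the GC-richest class, H3K9me1 density went from 4.89 to 6.75 peaks per Mb in fed and from 14.5 to 16.1 in starved muscle. LSD1 starved, which shares its library code with H3K9me2 starved, went from 20.05 to 35.8. Of the 8 lists, H3K9me2 starved alone was denser in GC-poor windows.

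Although starved peaks were denser in GC-poor windows, the peaks themselves were richer in GC than their flanks. The mean GC content of starved peaks was 47.3%, against 40.4% in equally long sequence 5 kb away on either side. For fed peaks the values were 43.1% and 42.6%. Soft-masked repeats made up 41.97% of the average starved peak and 38.2% of its flanks, and 27.7% of the average fed peak and 31.3% of its flanks. Starved peaks were thus richer in repeats than their surroundings, and fed peaks poorer.

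Of 6529 starved peaks on the chromosomes, 2837 (43.45%) were similar in sequence to at least 1 other starved peak. Of their flanks 5 kb to the right 32.2% were similar to another such flank, and of those to the left 32.7%. The one with the most partners, 265, lay on chromosome 3 (chr3:54968451-54968698, fold 3.555). The 8 kb around it (chr3:54967451-54975450) were aligned to all peaks. Over the whole 8 kb 11.7% of the starved peaks were similar, fewer than the 15.7% of their flanks. The stretch of 500 bases that begins with that peak was the place of the longest match of 357 starved peaks and of 151 sequences 5 kb to the right of them. That peak was chosen for its number of starved partners, so an excess of starved peaks in its own stretch follows from the choice. For fed peaks the counts were 1761 of 171120 peaks and 2256 flanks. From there to base 5500 starved peaks matched less often than their flanks in each stretch of 500 bases. The 150 bases most often matched by starved peaks, at chr3:54968527-54968676 on the plus strand, were these.
Dispersed repeat, chromosome 3: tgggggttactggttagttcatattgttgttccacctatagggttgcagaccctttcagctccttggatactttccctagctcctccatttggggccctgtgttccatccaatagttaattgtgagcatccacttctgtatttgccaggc

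Fed peaks were densest around gene starts and starved peaks far from genes. On the autosomes, fed density was 241 peaks per Mb (232 to 249) within 500 bp upstream of a transcription start site (TSS) against a mean of 70.8, and fell to 54.9 beyond 100 kb. Starved density was 1.78 (1.13 to 2.68) within 500 bp upstream, 2.55 (1.77 to 3.54) within 500 bp downstream, where the interval holds the mean of 2.66, 1.075 (0.708 to 1.56) at 1 to 2 kb downstream, and 3.67 (3.54 to 3.80) beyond 100 kb. The median distance to a TSS was 35.2 kb for fed and 92.35 kb for starved peaks, against 51.1 kb for evenly spaced positions. In promoters, taken to begin 1000 bp before a TSS and to end 100 bp after it, lay 3.53% of the fed and 0.827% of the starved peaks, against 1.19% of the genome. Introns held 43.5% of fed and 28.1% of starved peaks and made up 36.3% of the genome. Of all midpoints, 48.4% of fed and 30.2% of starved ones lay in genes. At a q-value of 1e-05 or less the shares were 34.7% (30.8 to 38.8) and 29.7% (23.1 to 36.9), and their intervals overlapped.

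**Figure D4:**
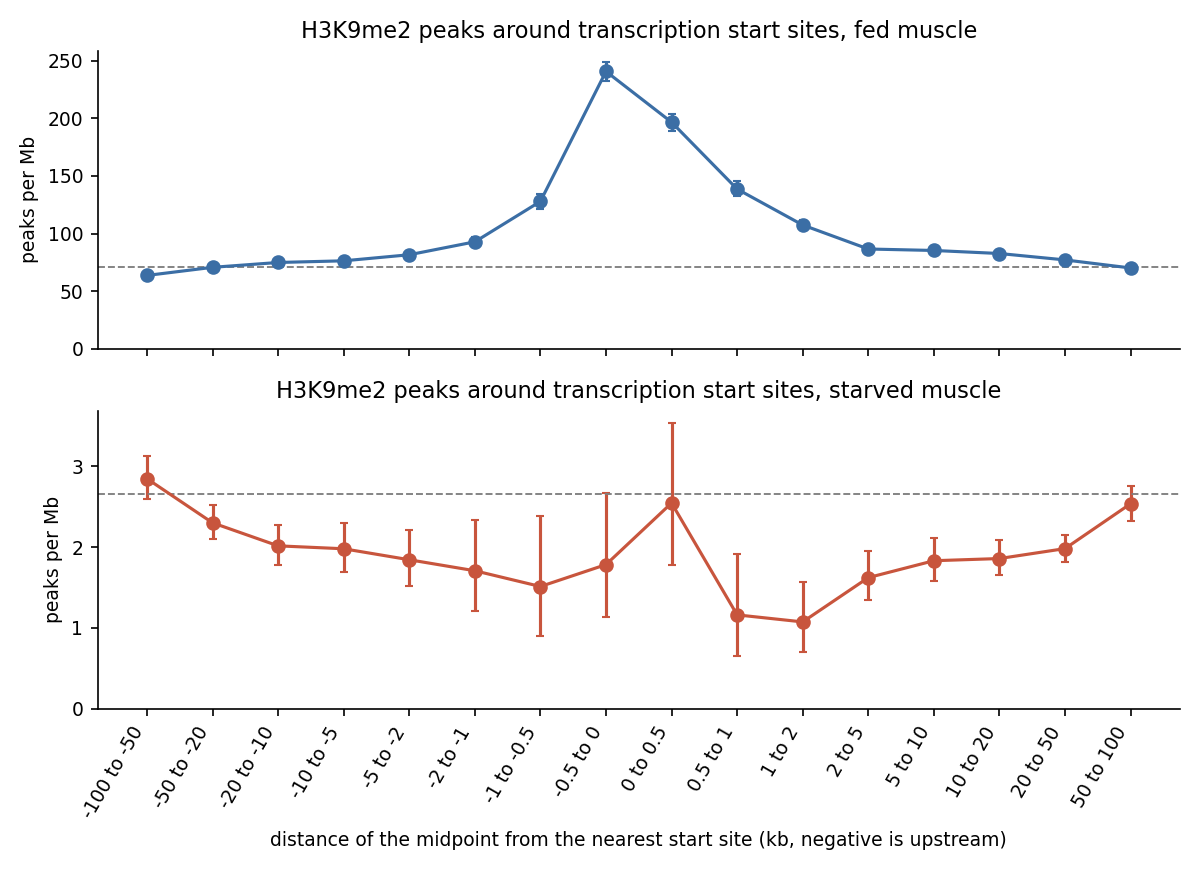
Density of H3K9me2 peak midpoints (peaks per Mb of autosome) by distance from the nearest transcription start site, in fed (upper panel) and starved muscle (lower panel); error bars are 95% Poisson intervals and dashed lines the autosomal means of 70.8 and 2.66. The fed list peaks at 241 just upstream of start sites, and the starved list lies below its mean in each bin within 50 kb.

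Of 21000 protein-coding genes, 14007 (66.7%) held at least 1 fed midpoint in the gene body and 1117 (5.32%) at least 1 starved midpoint. A promoter midpoint was found for 5130 genes (24.4%) in fed and 39 genes (0.186%) in starved muscle. The gene-body shares rose with gene length. Of genes under 10 kb 31.15% held a fed peak, and of genes of 200 kb or more 99.8%, although fed density was lower in the longest genes, at 0.646 peaks per 10 kb against 1.015 in genes under 10 kb. Starved density was highest at both ends, with 2.50 peaks per Mb in genes under 10 kb, 0.821 at 10 to 20 kb and 2.515 in genes of 200 kb or more. Groups of genes are compared per length below.

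Fed peaks were denser in genes of starvation and of chromatin than in the gene bodies of all protein-coding genes, where the density was 0.801 peaks per 10 kb. In 29 genes of starvation and atrophy it was 1.46 (1.24 to 1.71), with a fed peak in 23 of them (79.3%, against 66.7% of all genes) and a median over the genes of 1.48 against 0.674 for all genes. In 24 enzymes and readers of H3K9 methylation it was 1.24 (1.07 to 1.43), with a fed peak in 23 (95.8%). In 83 cytosolic ribosomal protein genes, most of which every cell transcribes, it was 1.64 (1.21 to 2.18), and 37 of them (44.6%) held a promoter peak, against 24.4% of all genes. A fed peak lay in 36 of these mostly short genes (43.4%), against 31.15% of all genes under 10 kb, and their median was 0. Hox genes, the body-plan regulators, had 1.43 (0.991 to 2.00) over 39 genes. Genes for the sarcomere and calcium handling had 0.738 (0.603 to 0.894), with a fed peak in 26 of 31 (83.9%). The shares of starvation, H3K9 and sarcomere genes with a fed peak were not matched for length. Of all genes of 20 to 50 kb 88.8% held one, and of those of 50 to 100 kb 97.2%. These shares therefore show no excess of genes with a peak.

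Olfactory and vomeronasal receptor genes and neuronal genes had fewer fed peaks per length than all protein-coding genes. A fed peak lay in 66.7% of all protein-coding genes and in 31.15% of those under 10 kb. The fed density was 0.489 (0.388 to 0.609) in 1107 olfactory receptor genes, of which 76 (6.865%) held a peak. In 352 vomeronasal receptor genes, of which 79 (22.4%) held one, the density was 0.390 (0.326 to 0.463). In 24 neuronal genes it was 0.496 (0.4575 to 0.537), with a fed peak in 22 of these mostly long genes, and in 21 liver genes 0.673 (0.427 to 1.01), with a fed peak in 11, an interval that holds the 0.801 of all genes. Markers of other cells of muscle (satellite, endothelial, fibro-adipogenic cells and leukocytes) had 0.689 (0.535 to 0.873), which holds it too, with a fed peak in 15 of 20. Zinc finger genes of the Zfp symbols had 0.935 (0.881 to 0.992), above all genes, and 57 clustered protocadherin genes, whose spans overlap, 0.7385. Of the liver genes Cps1, of the urea cycle, held 5 fed peaks, and Alb (albumin) and Trf (transferrin) 3 each. Of the markers of other cells, the endothelial receptor gene Tek held 11 fed peaks, the leukocyte gene Ptprc 9 and Dcn (decorin) 7, with 0 starved peaks in each. Adgre1, of macrophages, held 7 fed and 2 starved peaks, and Itgam 3 and 1.

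In starved muscle, on far fewer peaks, most groups could not be set apart from all protein-coding genes. Neuronal genes had 3.67 peaks per Mb (2.68 to 4.91) against 1.78 (1.70 to 1.87) in all protein-coding genes, and 12 of 24 held a starved peak. These genes span 12255 kb in all, and 51.9% of all genes of 200 kb or more held one. The density over all genes of that length was 2.515 peaks per Mb (2.361 to 2.676). That interval ends just below the lower bound of the neuronal genes, 2.678. Starvation and atrophy genes held 1 starved peak over 29 genes, the H3K9 genes 2 over 24, and the sarcomere genes 2 over 31. Their intervals, 0.0242 to 5.32, 0.1625 to 4.85 and 0.172 to 5.13 peaks per Mb, all hold the 1.78 of all genes. Olfactory receptor genes held 7 in 7 genes (0.632% of them), at 4.28 peaks per Mb (1.72 to 8.82). Vomeronasal receptor genes held 9 in 8 genes (2.27%), at 2.68 peaks per Mb (1.225 to 5.09). Both intervals hold 1.78. A starved peak lay in 5.32% of all protein-coding genes and in 0.751% of those under 10 kb. No starved peak fell in the ribosomal protein, Hox, liver or protocadherin genes. This allows up to 12.9 peaks per Mb for the ribosomal protein genes, 15.5 for the Hox genes and 10.8 for the liver genes. No difference from other genes was detectable in these groups. For the protocadherin genes, whose spans overlap, it allows up to 0.715.

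**Figure D5:**
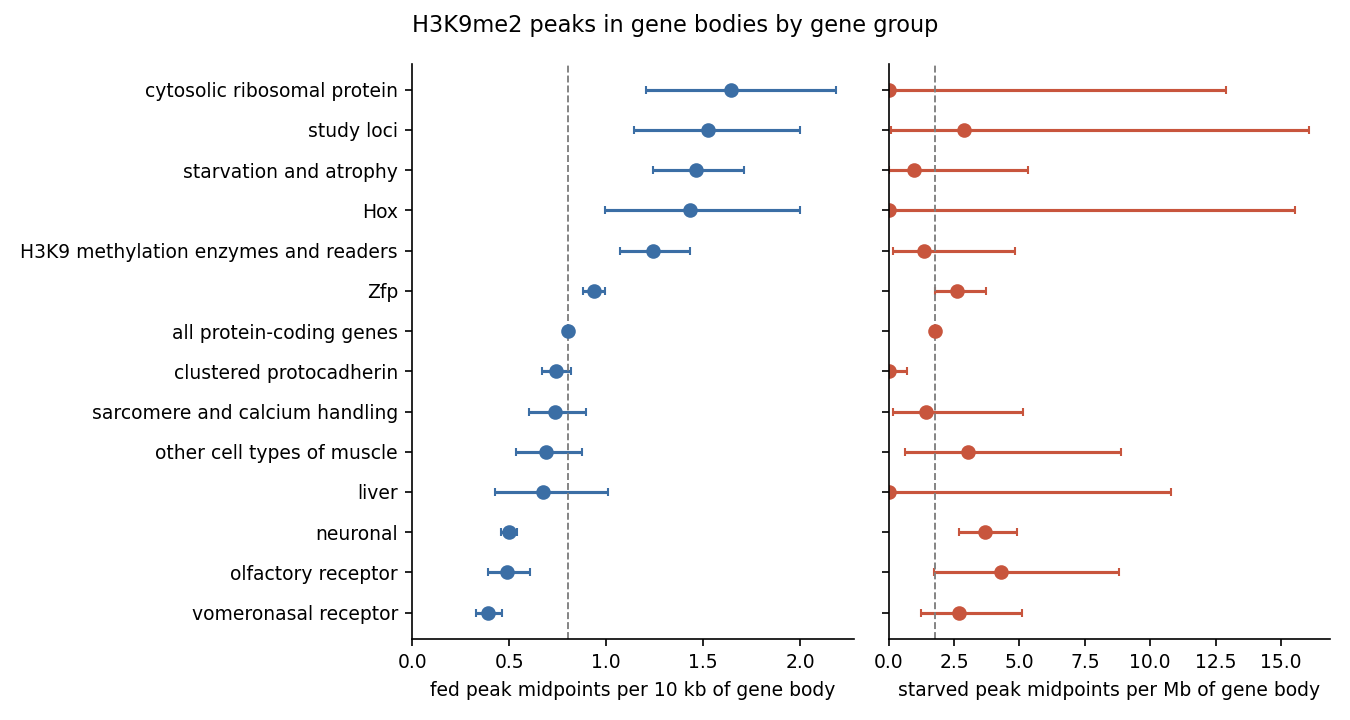
Density of H3K9me2 peak midpoints in gene bodies by gene group, per 10 kb in fed (left) and per Mb in starved muscle (right); bars are 95% Poisson intervals and dashed lines all protein-coding genes, at 0.801 and 1.78. Ribosomal protein, starvation and H3K9 genes lie to the right of the fed line, and neuronal, olfactory and vomeronasal receptor genes to its left.

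The loci that the study chose as examples on these samples, some of which are also starvation genes above, had fed peaks and almost no starved ones. Gene bodies of 9 of 10 held at least 1 fed midpoint, against 66.7% of all protein-coding genes, and 1 held a starved midpoint, against 5.32%. These shares were not matched for length, and of all genes of 20 to 50 kb 88.8% held a fed midpoint. Pik3r1, a regulatory subunit of phosphoinositide 3-kinase, held 23 fed peaks over 87.5 kb, with folds from 2.86 to 4.01, and 0 starved peaks. Ddit4, an inhibitor of the mTOR pathway, held 2 fed peaks, with folds of 2.825 and 3.15, and 0 starved peaks. Trim63, a muscle ubiquitin ligase, held 1 in the gene, 11.02 kb from the TSS with a fold of 3.31, and another upstream, at -0.967 kb from the TSS, with a fold of 3.11. Fbxo32, another ubiquitin ligase of atrophy, held 6 fed peaks with folds from 3.25 to 3.67.

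Fbxo31, an F-box gene, held 2 fed peaks with folds of 3.27 and 3.33 and the single starved peak of these loci. That peak was 49 bp long, lay 11.15 kb into the gene with a fold of 3.995, and no fed peak overlapped it. Tfcp2, a transcription factor gene, held 8 fed peaks in the gene, Mtch1, of the mitochondrial outer membrane, 4, and Pax7, the satellite cell regulator, 3. Rap2b, a small GTPase gene, held none in the gene and 1 fed peak at -0.726 kb from the TSS. Tfcp2, Mtch1, Rap2b and Trim63 had a fed peak in the promoter, against 24.4% of all genes, and none of the 10 had a starved peak there.

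The promoter peaks of Mtch1 and Rap2b are printed as examples of fed peaks at gene starts, with the capital in the first marking its TSS on the plus strand of GRCm38. The Mtch1 peak, chr17:29347916-29347968, had a fold of 3.75, and the Rap2b peak, chr3:61363656-61363906, a fold of 2.98.
Mtch1 promoter peak: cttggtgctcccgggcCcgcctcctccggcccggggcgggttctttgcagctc
Rap2b promoter peak: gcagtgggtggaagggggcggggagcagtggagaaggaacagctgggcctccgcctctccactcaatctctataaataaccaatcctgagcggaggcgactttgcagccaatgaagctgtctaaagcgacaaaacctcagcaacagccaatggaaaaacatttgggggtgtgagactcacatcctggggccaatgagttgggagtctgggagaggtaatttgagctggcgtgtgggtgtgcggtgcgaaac

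In other starvation genes, Zbtb16, a transcription factor induced by glucocorticoids, held 30 fed peaks over 184 kb, and Fkbp5, a co-chaperone of GR, 18 over 87.4 kb, with 0 starved peaks in each. Among the H3K9 genes Kdm4c, a demethylase, held 25 fed and 0 starved peaks. Ehmt1, which writes the mark, held 23 fed and 1 starved peak, Jmjd1c 20 fed and 0 starved, and Phf2 5 fed and 1 starved. Of the giant sarcomere genes, Neb (nebulin) held 18 fed and 0 starved and Ttn (titin) 14 fed and 1 starved peak. Ldb3 held 12 fed and 0 starved peaks and Myom1 11 and 1. Of the neuronal genes, Cntnap2 held 118 fed and 12 starved peaks over 2241 kb, Rbfox1 75 and 6, Nrxn3 67 and 7, and Dlg2 90 and 2.

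Among 9481 genes of at least 20 kb, the centrosomal gene Sfi1 on chromosome 11 (chr11:3131850-3200652) was the densest in both lists. It held 58 fed peaks, 8.43 per 10 kb against a median of 0.821, and 34 starved peaks, 4.94 per 10 kb. LSD1 starved had 73 peaks there, H3K9me1 starved 49, GR starved 34, H3K9me1 fed 20, GR fed 1 and LSD1 fed 0. Tcp10c was the next densest in fed muscle with 13 fed and 2 starved peaks, and Mroh2a the next in starved muscle with 10 starved and 9 fed peaks. Slc45a3 and Phf19 with 8 fed peaks each and Bcl9l with 11 had no starved peak. Zfp992 and C130026I21Rik, with 2 starved peaks each, completed the list, and Zfp978 held the most peaks of any Zfp gene, 49 fed and 5 starved. Of the 9481 genes, 8466 held no starved peak and 622 no fed peak.

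Of the 3 densest windows of each list 2 were the same. The window of chromosome 11 that holds Sfi1 (chr11:3000001-4000000) had 158 fed and 39 starved peaks, the most starved peaks of any window. A window of chromosome 4 with a cluster of Zfp genes (chr4:147000001-148000000) had the most fed peaks, 184, and 21 starved peaks. In contrast, the gene-dense window of chromosome 17, chr17:35000001-36000000, had 164 fed and 1 starved peak, and a window of chromosome 5 that holds Pclo, Sema3e and Speer4e (chr5:14000001-15000000) had 54 fed and 32 starved peaks. Median counts per window were 68 in fed and 2 in starved muscle.

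Sites called in both conditions were few and were richer in repeats than the other peaks of either list. The 503 fed and 530 starved peaks formed 536 overlapping pairs, with a median fold of 2.64 in fed and 2.78 in starved muscle. The fed fold was the higher one in 39.7% of the pairs. Starved peaks with a fed counterpart were longer than the others, with a median of 154.5 bp against 98 bp, had lower folds, 2.78 against 3.77, and were richer in masked repeats, 59.5% against 40.6%. Of them, 74.3% were called in at least 1 of the other 6 lists, against 9.17% of the starved peaks without a fed counterpart.

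Grouped by distance the pairs formed 326 blocks, of which 289 held a lone pair. The bases shared by both lists, 149.7 kb in all, were more concentrated than the sites, and 8 blocks held 68.7% of them. The largest, 113.7 kb of an unplaced contig, held 30.6%. The next lay at the start of the assembled sequence of chromosome 9 (chr9:3000022-3038297) and held 23.1%. There 6 fed peaks covered 36.9 kb and 15 starved peaks 34.6 kb, with folds from 1.89 to 1.92 in fed and from 1.49 to 1.63 in starved muscle. The sequence repeated itself with a period of 234 bases, at which 71.3% of bases were the same as those 1 period later, and 96.3% of it was soft-masked. It is the kind of satellite that packs constitutive heterochromatin at mouse centromeres, and its first unit, chr9:3000022-3000255 on the plus strand, was this.
Satellite unit, chromosome 9: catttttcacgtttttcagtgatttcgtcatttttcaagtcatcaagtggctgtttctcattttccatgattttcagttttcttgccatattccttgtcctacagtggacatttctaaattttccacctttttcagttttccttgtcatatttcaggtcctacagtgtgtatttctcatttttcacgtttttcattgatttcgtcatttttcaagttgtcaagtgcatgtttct

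The satellite block was covered in 7 of the 8 lists, by 37.1 kb of peaks in H3K9me1 starved, 36.4 kb in LSD1 starved, 33.3 kb in LSD1 fed, 27.7 kb in GR fed and 14.8 kb in H3K9me1 fed, and by none in GR starved. Other shared blocks were the ends of Y (34 pairs) and X (20 pairs), 3.97 kb of chromosome 14 (chr14:19415722-19419692) with a fold of 1.956 in fed and 1.61 in starved muscle, and the Sfi1 region with 19 pairs. The last of the 8 on a placed chromosome was 5.07 kb of chromosome 2 (chr2:98662250-98667314) with 4 pairs. The longest fed peak on a placed chromosome lay in the satellite block, at 17612 bp, and so did the longest starved peak, at 7565 bp.

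Of the H3K9me2 lists the fed one alone held mitochondrial sequence, which H3K9me1 starved, both LSD1 lists and GR fed held too. A fed peak with a fold of 1.75 covered 16270 of the 16299 bases of the mitochondrial genome, which carries no histones, and no starved peak lay there. Another fed peak, 4608 bp of chromosome 1 (chr1:24611554-24616161) with a fold of 1.59, was a nuclear copy of it, with 99.1% of its 24-base words found in the mitochondrial genome. No starved peak overlapped it either.

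Starved peaks were overlapped more by the starved list of each other antibody than by its fed list. For LSD1 the shares were 8.62% (7.96 to 9.32) and 2.355%, for GR 8.47% and 1.46%, and for H3K9me1 7.52% and 2.93%, beside 8.001% for H3K9me2 fed. In each case the starved list was also the longer one, with 66332 against 16616 peaks for LSD1, 37783 against 14108 for GR and 38023 against 14178 for H3K9me1. At a q-value of 0.01 or less this order turned for LSD1, with 6790 starved and 7553 fed peaks. It held for GR, with 13107 and 9939, and for H3K9me1, with 17071 and 5810. The longer LSD1 starved list is therefore no measure of more LSD1 binding. Both LSD1 lists carry the code of H3K9me2 starved and both GR lists the other. Fed peaks were overlapped most by GR starved, 3.115%, then by LSD1 starved, 1.76%, LSD1 fed, 1.64%, and GR fed, 1.37%. Fed H3K9me2 peaks in turn overlapped 16.8% of the LSD1 fed and 16.5% of the GR fed peaks, and starved H3K9me2 peaks 0.831% of the LSD1 starved and 1.17% of the GR starved peaks.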

How the data were processed

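Nuclei from skeletal muscle of fed and 24 h starved mice had been fixed and immunoprecipitated, and the libraries sequenced as single-end reads. Per the labels and the methods of the study, the authors kept uniquely aligned reads on mm10 (GRCm38), removed regions of a human blacklist and called broad peaks against input with MACS2, 1 list per library. The submitters' processing notes name bcl2fastq 2.20.0.422. The deposited lists give for each peak a fold enrichment over input (a ratio), a −log10 p-value, a −log10 q-value and a score. The fold, the −log10 q-value and the positions were used. The methods of the study state that peaks with a false discovery rate above 0.01 were excluded, but the deposited lists hold such peaks, and 20.9% of the fed and 15.96% of the starved H3K9me2 peaks have a q-value of 0.01 or less. All peaks were kept. Uniquely aligned reads undercount repeats. Input lists were not analysed here, and read depth is unknown, so intervals and floors cover counting error of peaks only.

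Peaks were assigned to genes (RefSeq, GRCm38) and locations by their midpoint, with promoters beginning 1000 bp before a start and ending 100 bp after it. Densities are per non-N base with exact Poisson intervals at 95%, shares have exact Clopper-Pearson intervals, and overlap means at least 1 bp. Shared blocks join shared sites under 50 kb apart. Windows of 1 Mb with at least 90% known sequence were used. Sequences were compared with BLAST 2.17.0 (word size 11, e-value 1e-05). Python 3.11.15, numpy 2.4.6, pandas 2.3.3, scipy 1.17.1 and matplotlib 3.10.9 were used. The counting of overlaps and locations was tested on simulated data.

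With 1 library per condition no test was made. The members, gene lists and repeat units were chosen with earlier results of these data known. Named genes were the example loci of the study, the 5 genes of at least 20 kb on autosomes or X with the highest density in each list, and up to 3 members of each gene group with most fed and with most starved peaks. Named sites were the 6 shared sites with the highest smaller fold, the 3 longest peaks, the 3 strongest peaks called in 1 list alone and the 3 densest windows of each list. Repeat units and the dispersed sequence were chosen after their values were seen. Alternatives for q-value, fold, overlap, merging, masked repeats and chromosomes are given in the closing section. A gene and a site that these rules name are not reported here.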

Additional observations from a re-analysis of the deposited data

Results flagged for a closer look

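The number of H3K9me2 peaks and that of H3K9me1 peaks moved in opposite directions between the conditions. The starved list held 0.03865 times as many H3K9me2 peaks as the fed list, and 2.682 times as many H3K9me1 peaks. With 1 library per condition and mark, the difference was not tested. In both marks the fed library carried the code P2727 and the starved library P2731.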

How the results depend on the processing

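No paired analysis was possible because each condition had 1 library and no result comes from a test. For the same reason no library was left out. Of 75 alternatives, 10 stayed within the interval of the value as reported and 65 moved outside it. The cause of these moves was not tested.

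With a q-value of 0.01 or less, the starved list held 2.95% as many peaks as the fed list, 24.3% of starved and 0.655% of fed peaks overlapped, 47.7% of fed and 31.5% of starved midpoints lay in genes, masked bases made up 28.1% of fed and 64.5% of starved peaks, X density was 0.112 of autosomal in fed and 0.321 in starved muscle, and 35.3% and 1.095% of genes held a peak. At 1e-05 the same values were 33.8%, 77.4% and 23.1%, 34.7% and 29.7% in genes, 67.8% and 90.4% masked, 0.389 and 0.421 on X, and 0.857% and 0.219% of genes. With a fold of at least 5 they were 10.7%, 4.88% and 0.5215%, 45.1% and 35.8% in genes, 40.9% and 50.1% masked, 0.214 and 0 on X, and 1.52% and 0.1095% of genes.

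With peaks under 50% masked they were 2.97%, 4.47% and 0.129%, 51.5% and 34.0% (34.01%) in genes, 0.0692 and 0.0574 on X, where, as with a fold of at least 5, the starved ratio was below the fed one, and 63.4% and 4.07% of genes. With the fed list cut to the starved length by fold, 0.1963% of either list overlapped, 47.2% of fed midpoints lay in genes, 28.8% of fed bases were masked and 11.15% of genes held a fed peak. The starved list made up 4.21% of the fed list in base pairs, 4.02% after merging within 1 kb and 4.395% without the shortest peaks, and X ratios by base pairs were 0.08545 and 0.326. Overlap of starved and fed peaks was 6.82% and 0.2485% at 50% of the shorter peak, 12.8% and 0.493% for midpoints within 500 bp, and 6.66% and 0.246% on autosomes and X. With genes extended by 1 kb, 50.5% of fed midpoints lay in genes and 70.9% of genes held one.

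The ratio of the GC-poorest to the GC-richest of 5 classes of windows, whose alternatives were chosen after seeing the data, was 0.581 in fed (0.487 to 0.582) and 4.05 in starved muscle (2.12 to 6.97), so the directions were the same throughout.

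The starved counts are small in single genes and groups, and the libraries cannot show how far another pair of libraries would differ. Short peaks at low fold make up most of both lists, and calls at repeats depend on unique alignment.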
